A study of Drosophila melanogaster with 3 samples.

Results

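The 92 cytoplasmic ribosomal protein genes of Drosophila melanogaster were examined in a chromatin immunoprecipitation sequencing (ChIP-seq) experiment on CG13775, a protein named by its annotation number. They are the protein-coding genes whose symbol starts with RpL (54 genes, large subunit of the ribosome, the stalk proteins RpLP included) or RpS (38 genes, small subunit), out of 13968 protein-coding genes in the Ensembl annotation of the fly genome. Mitochondrial ribosomal protein genes, whose symbols start with mRp, are not among them, nor are sta and Rack1, which encode cytoplasmic ribosomal proteins under other symbols.

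The chromatin came from whole embryos of both sexes, 0 to 24 hours after laying, of a transgenic line with green fluorescent protein (GFP) fused to the C terminus of CG13775, and was precipitated with an antibody against GFP. The 3 libraries are biological replicates 1, 2 and 4 of this single group, and there is no second condition. The labels do not give the promoter that drives the transgene, and whole embryos of this age span many stages and tissues, so each value is an average over them. No untagged or input sample was analysed here, so binding can be compared between genes but not with a background sample.

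Ribosomal proteins assemble with ribosomal RNA into the ribosome, which every cell needs in large and balanced amounts. Their genes are scattered over the chromosomes, are among the most strongly transcribed in growing cells, and many start inside a run of pyrimidines known as the TCT initiator. In flies, losing a copy of one of them often gives a Minute phenotype, with slow development and thin bristles. Several ribosomal proteins have a second gene, and in flies a number of these additional copies, among them RpL22-like, RpS5b and RpS19b, are known mainly from the germline.

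A gene was called bound where the summit of a peak lay within 500 bp of any of its annotated transcript starts. The authors' optimal list of 5862 peaks was the main list. It is the set of regions left by the irreproducible discovery rate (IDR) procedure, and its peaks are exactly the 5862 strongest regions of the list that the authors called from all libraries together. For each replicate, the 5862 strongest regions in its own list of 30000 were used in the same way. Those lists come from the same libraries as the optimal list and give the spread of the values, not an independent repeat of it. Signal is the authors' peak caller's value without a stated scale, and it was compared only within a list, so ranks (1 for the highest signal) stand for strength across replicates. Positions are counted from the nearest start of the gene itself, and negative positions lie upstream.

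The sequence around 8 of these starts is shown first, because the results below turn on how close the summits lie to the start, on the word TATCGATA (the DNA replication-related element, DRE, bound by the factor DREF) and on the contrast between copies of a gene. RpS27 had the highest signal of all members, and RpL28 and RpS25 were among the 10 highest with a TATCGATA close to the summit. RpS10b and RpS10a, and RpL34b and RpL34a, are paralog pairs. RpL14 was chosen after its values were seen, as a gene with CTTT, the core of the TCT initiator, at its start. Each sequence runs from 100 bases before the most upstream annotated start to the 20th base from it, on the strand of the gene, in the Release 6 (dm6) genome from RefSeq. The windows are chr3R:25247495-25247614 (minus strand) for RpS27, chr3L:3222941-3223060 (minus) for RpL28, chr3R:11216268-11216387 (minus) for RpS25, chr3L:8600906-8601025 (plus) for RpL14, chr3R:27652660-27652779 (plus) for RpS10a, chrX:19597931-19598050 (plus) for RpS10b, chr3R:26059248-26059367 (minus) for RpL34a and chr3R:9401207-9401326 (minus) for RpL34b. Capitals mark TATCGATA, and CTTT where it begins within 2 bases of the most upstream start. RpL34b is counted below among the genes with CTTT, but at its canonical start, which lies 24 bases downstream and outside the printed bases.
RpS27: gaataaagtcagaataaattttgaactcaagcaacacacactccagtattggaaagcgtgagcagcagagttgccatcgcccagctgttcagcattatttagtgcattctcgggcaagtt
RpL28: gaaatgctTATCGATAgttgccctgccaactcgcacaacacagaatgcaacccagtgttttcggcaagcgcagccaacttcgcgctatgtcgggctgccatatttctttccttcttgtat
RpS25: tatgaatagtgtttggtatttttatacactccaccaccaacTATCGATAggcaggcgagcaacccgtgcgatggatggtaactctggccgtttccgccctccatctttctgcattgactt
RpL14: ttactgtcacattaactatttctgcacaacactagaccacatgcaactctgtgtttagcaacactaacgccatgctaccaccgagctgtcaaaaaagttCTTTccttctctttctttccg
RpS10a: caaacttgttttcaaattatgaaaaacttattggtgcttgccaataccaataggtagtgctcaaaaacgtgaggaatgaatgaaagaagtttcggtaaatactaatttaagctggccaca
RpS10b: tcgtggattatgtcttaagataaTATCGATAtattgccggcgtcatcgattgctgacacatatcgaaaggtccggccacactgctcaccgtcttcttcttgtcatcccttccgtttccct
RpL34a: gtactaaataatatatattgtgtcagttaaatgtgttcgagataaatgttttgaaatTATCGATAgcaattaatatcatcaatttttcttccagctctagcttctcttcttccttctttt
RpL34b: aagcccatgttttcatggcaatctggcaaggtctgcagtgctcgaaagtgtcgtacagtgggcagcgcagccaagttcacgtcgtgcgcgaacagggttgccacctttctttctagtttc
With the first base of the transcript as 0, the strongest summit of RpS27 lay at +7, and those of RpL28, RpS25, RpL14 and RpS10b lay at −68, −51, −19 and −37. The summit counted for RpL34a lay at −136 and that of RpL34b at −106, both just beyond the printed bases. RpS10a had no optimal summit.

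Most ribosomal protein genes had a CG13775 peak at their start. Of the 92 genes, 78 (84.8%) were bound in the optimal list, against 26.2% of all protein-coding genes, the members included, and 25.8% of the 13876 protein-coding genes that are not members. The exact 95% binomial (Clopper-Pearson) interval of the members' share was 75.8% to 91.4%, which covers counting error only. In the single replicates 74, 77 and 77 members were bound in replicates 1, 2 and 4 (80.4%, 83.7% and 83.7%, mean 82.6% ± 1.88, SD, n = 3), where all protein-coding genes reached 25%, 25.5% and 27.4%. The members' share exceeded that of all protein-coding genes in every replicate by far more than the replicates differed among themselves. Mitochondrial ribosomal protein genes, bound at 39 of 73 (53.4%, with a replicate mean of 53.4% ± 4.94, SD, n = 3), lay between the members and all protein-coding genes.

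Of the 78 bound members, 69 were also bound in all 3 replicates, 7 in a pair of replicates and 1 (RpS9) in a single one. RpS3, whose protein lies at the mRNA entry of the small subunit, was bound in the optimal list but in no replicate on its own. Its regions ranked 6924, 7729 and 6757 in replicates 1, 2 and 4, just past the 5862 regions used. In the longer pooled list, 86 of the 92 members (93.5%) had some region at a start, against 53.8% of other protein-coding genes.

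The peaks were also strong. The median signal of the strongest peak at a bound member was 595, against 330 for the 3580 other bound protein-coding genes. In percentiles among the 5862 optimal peaks, the medians were 85.7 for the members and 62.8 for the other bound genes, and in the replicates 85.3 ± 2.33 and 62.8 ± 2.86 (SD, n = 3 each). Of the 78 bound members, 29 (37.2%) had a peak among the 586 strongest of the list, against 16.5% of other bound protein-coding genes. The order of the members was similar in each pair of replicates. Spearman's rho of their ranks was 0.94 between replicates 1 and 2 (83 genes listed in both), 0.95 between 1 and 4 (84 genes) and 0.92 between 2 and 4 (83 genes). These correlations are across genes, which share library and depth within a replicate, and they describe the lists without a test.

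**Figure D1:**
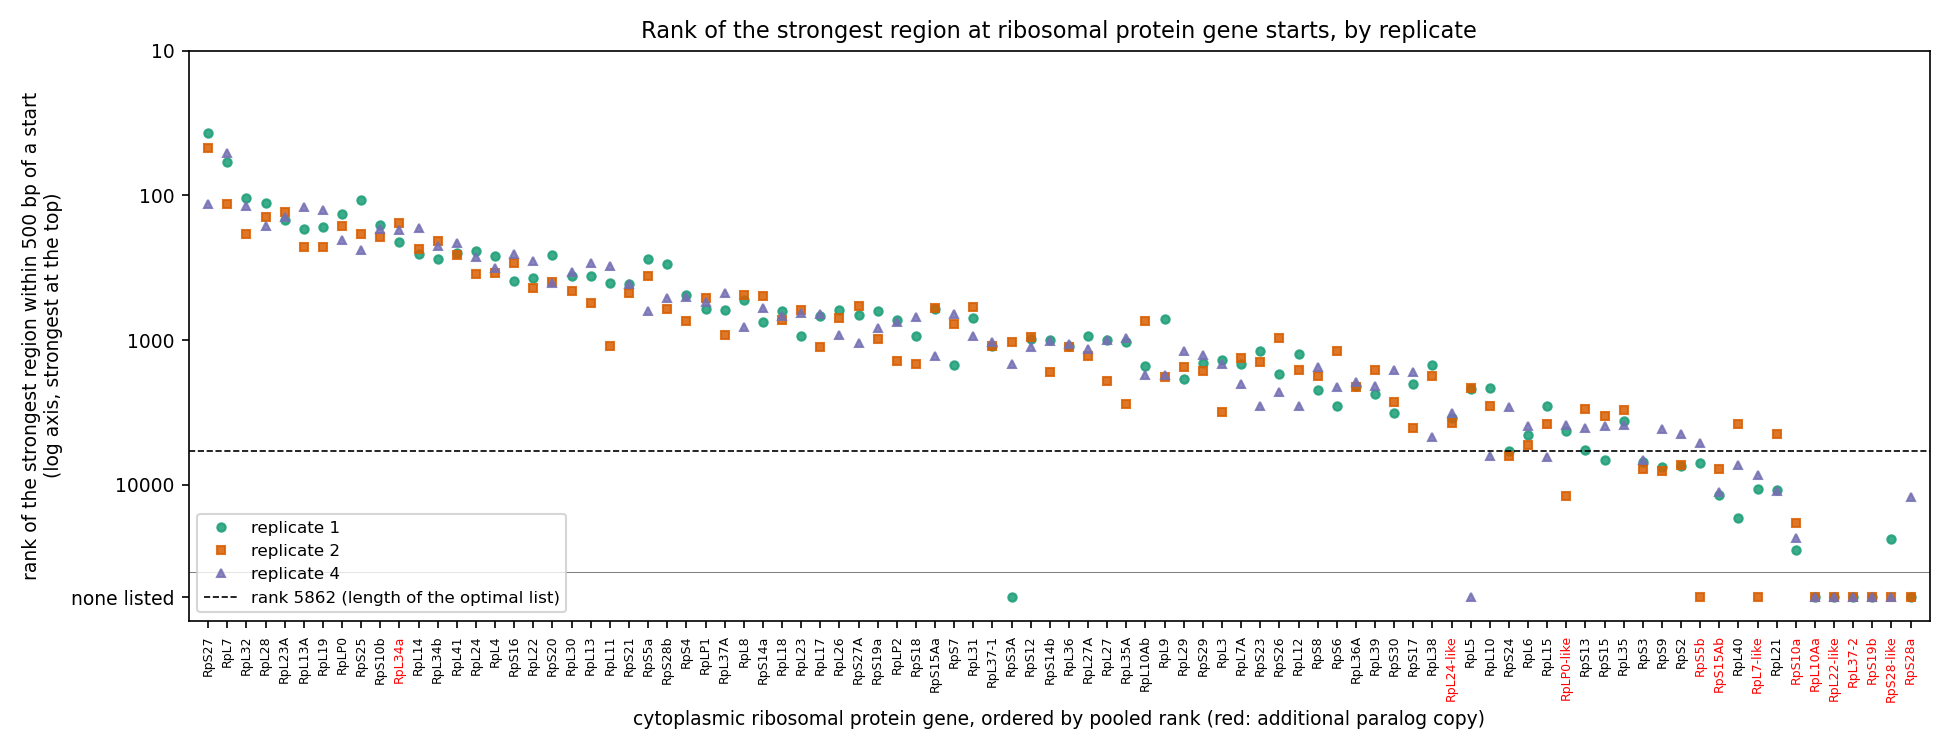
Rank of the strongest region within 500 bp of a start (log axis, strongest at the top) for 90 of the 92 genes in replicates 1, 2 and 4, ordered by rank in the pooled list, with the names of additional paralog copies in red. Most genes sit above the dashed line at rank 5862, the length of the optimal list, while most additional copies sit below it or have no region listed.

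The 10 bound members of highest signal came from both subunits, 8 from the large and 2 from the small. RpS27 (FBgn0039300), which encodes a zinc-binding protein of the small subunit, had the highest, with a signal of 1761 and rank 56 of 5862 (peak chr3R:25247339-25247751, summit at +7). Its regions ranked 37, 47 and 115 in replicates 1, 2 and 4. RpL7 (FBgn0005593) followed with a signal of 1756 and rank 58 (peak chr2L:10200852-10201221, summit at +29), and ranked 59, 115 and 51 in the replicates. The order of these genes thus changed between replicates, with RpS27 ahead of RpL7 in replicates 1 and 2 and behind it in replicate 4.

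RpL32 (FBgn0002626), better known as rp49 and widely used as a reference transcript in fly work, had a signal of 1393 and rank 128 (peak chr3R:30046010-30046508, summit at −76), with ranks of 105, 186 and 118. RpL28 (FBgn0035422) had a signal of 1363 and rank 137 (peak chr3L:3222856-3223416, summit at −68), with ranks of 113, 142 and 163. RpL23A, a protein near the exit of the nascent peptide tunnel, had a signal of 1348 and rank 144, and its replicate ranks of 148, 131 and 141 were close to each other.

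The next 4 genes had nearly equal signals. RpL13A stood at 1283 with replicate ranks of 171, 226 and 120, and RpL19 at 1277 with 165, 229 and 126. RpLP0, the base of the ribosomal stalk, stood at 1274 with 134, 163 and 203. RpS25 stood at 1264 with 108, 184 and 238. The replicate ranks of these 4 genes overlap throughout, so their order is not resolved. The other 68 bound members had signals from 162 to 1255, and 35 of the 78 were within the first 1000 regions of every replicate.

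The lowest signals among the bound members were 163 at RpS3 (rank 5381) and 162 at RpS9 (rank 5399), near the end of the list, where the lowest signal was 151. Members whose rank moved much between replicates, as the ratio of the highest to the lowest rank, included RpL40 (4.46), RpL11 (3.54), RpL38 (3.17) and RpS27 (3.11). The RpL40 ratio sets regions at different positions against each other, at −56, −373 and −401 in replicates 1, 2 and 4. RpL11, which binds 5S ribosomal RNA together with RpL5, ranked 401, 1093 and 309 in replicates 1, 2 and 4, lower in replicate 2 than in the others. RpL38 ranked 1477, 1779 and 4686, lower in replicate 4.

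Large subunit genes were bound slightly more often than small subunit genes, by less than the replicates allow to be told apart. In the optimal list, 48 of 54 large subunit genes (88.9%, exact interval 77.4% to 95.8%) and 30 of 38 small subunit genes (78.9%, exact interval 62.7% to 90.4%) were bound, a difference of 9.94 percentage points. The difference was 20.5 and 17.1 points in replicates 1 and 2 and −0.877 points in replicate 4 (mean 12.2 ± 11.5, SD, n = 3), so its sign was not the same in all of them. The share of large subunit genes was 88.9%, 90.7% and 83.3% in replicates 1, 2 and 4, and that of small subunit genes was 68.4%, 73.7% and 84.2%. Among main copies alone, 45 of 47 large subunit genes (95.7%) and 30 of 32 small subunit genes (93.8%) were bound in the optimal list, which differ by 1.99 points. Median signals were 630 at bound large subunit genes and 557 at bound small subunit genes, and 20 of 48 large against 9 of 30 small (41.7% and 30%) had a peak among the 586 strongest.

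**Figure D2:**
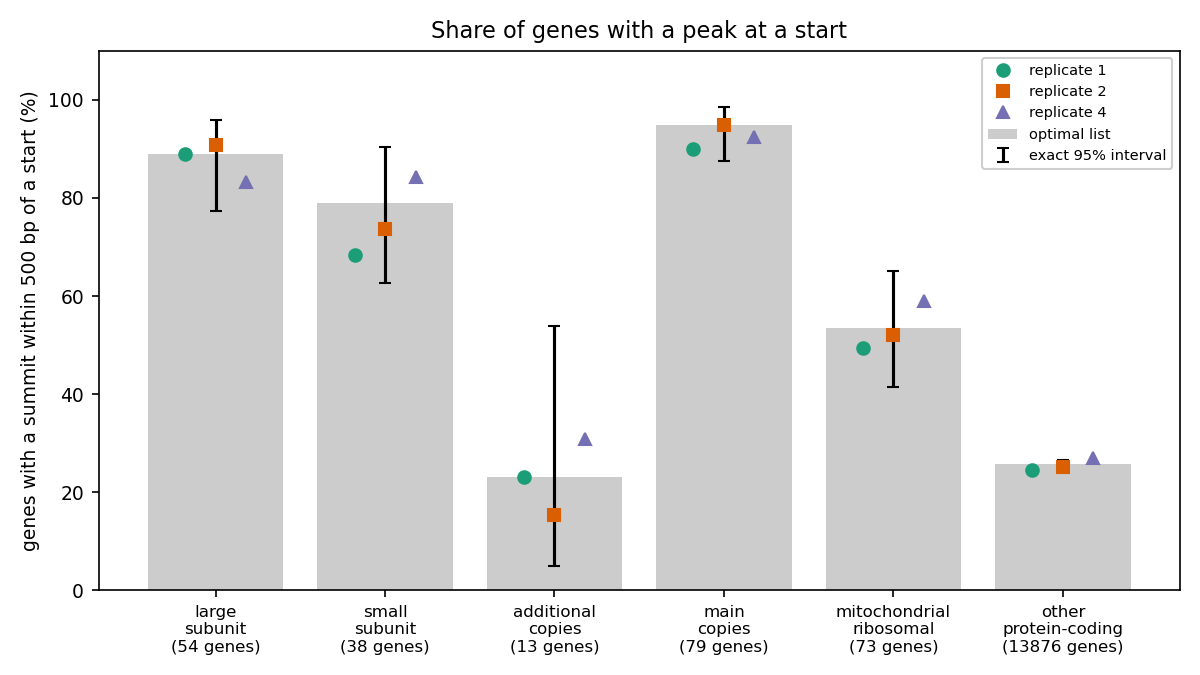
Share of genes with a summit within 500 bp of a start, for the groups of ribosomal protein genes, mitochondrial ribosomal protein genes and other protein-coding genes. Grey bars give the optimal list with exact 95% intervals for counting error, and symbols give replicates 1, 2 and 4. Additional copies (3 of 13) lie far below main copies (75 of 79) in every list, and nearer to other protein-coding genes. The symbols of large and small subunit genes overlap.

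The clearest division among the members was between the genes taken as main copies and those taken as additional copies. Where a ribosomal protein has paralogs, the gene taken as the main copy and the additional copies were named in a list, which holds 13 additional copies of 12 proteins, and the other 79 members counted as main copies. Of the additional copies 3 of 13 were bound (23.1%, exact interval 5.04% to 53.8%), against 75 of 79 main copies (94.9%, exact interval 87.5% to 98.6%). Among all protein-coding genes 26.2% were bound, so the additional copies lay near that share and the main copies far above it. The difference, additional minus main, was −71.9 percentage points in the optimal list and −66.8, −79.6 and −61.6 points in replicates 1, 2 and 4 (mean −69.3 ± 9.22, SD, n = 3), so it was several times as large as its spread. In the pooled list 7 of 13 additional copies (53.8%) and 79 of 79 main copies had some region at a start, against 53.8% of other protein-coding genes.

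None of the 6 additional copies of the small subunit was bound in the optimal list. RpS19b, RpL10Aa, RpL22-like and RpL37-2 had no region within 500 bp of a start in any list, the pooled one included. Their main copies, RpS19a, RpL10Ab, RpL22 and RpL37-1, were all bound in each replicate. RpS19a ranked 625, 984 and 827 in replicates 1, 2 and 4, RpL10Ab 1514, 732 and 1736, RpL22 372, 433 and 283, and RpL37-1 1107, 1100 and 1032. The RpL10Ab regions of replicates 2 and 4 lay at −345 and −425. Those closest to its start, at −59 and −17, ranked 2206 and 5440. RpS19b was the one member just outside the 500 bp limit, with its closest optimal summit at −884 (pooled rank 2108). No member had its closest optimal summit between 300 and 500 bp from a start, and the farthest among bound members, at RpS6, was at −227.

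The other unbound additional copies had weak regions within 500 bp of a start in some lists. RpS10a ranked 28218, 18230 and 23319 in replicates 1, 2 and 4, against 160, 193 and 171 for RpS10b. RpS15Ab ranked 11716, 7830 and 11176, against 606, 598 and 1285 for RpS15Aa. The proteins of this last pair are 97.7% identical. RpS5b ranked 7075 in replicate 1 and 5124 in replicate 4 and had no region in replicate 2, while RpS5a ranked 273, 360 and 633. RpS28a had a region in replicate 4 alone (rank 12061) and RpS28-like in replicate 1 alone (rank 23871), while RpS28b ranked 298, 609 and 514. The summit lay at +335 for RpS28a, past the end of that short gene, and at +364 for RpS28-like, near its end. RpL7-like ranked 10729 and 8513 in replicates 1 and 4, with no region in replicate 2, against 59, 115 and 51 for RpL7.

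Each of the 3 bound additional copies shared its peak with a neighbour whose start was closer to the summit. RpL34a, with a signal of 1232 and replicate ranks of 211, 156 and 172, had its summit at −136 and 93 bp from the start of Trmt61, a tRNA methyltransferase gene. Its paralog RpL34b had a signal of 1110 and ranks of 275, 208 and 222, so this was the pair in which the additional copy ranked ahead of the main copy in each replicate. Which of the pair is the main copy was taken from the list and not from these data. RpL24-like, whose product acts in ribosome assembly, had a signal of 259 and ranks of 3476, 3718 and 3175, with its summit at −118 and 38 bp from the start of CG5276, while RpL24 ranked 243, 348 and 266. RpLP0-like, also an assembly factor, had a signal of 197 and ranks of 4239, 11903 and 3889, with its summit at −54 and 33 bp from the start of 14-3-3zeta, while RpLP0 ranked 134, 163 and 203. Where a summit was counted only for the gene with the nearest start, none of the 13 additional copies and 74 of the 79 main copies were bound.

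The proteins of these pairs ranged from 18.1% identity (RpLP0 and RpLP0-like) to 97.7% (RpS15Aa and RpS15Ab), as aligned from the annotated coding sequences. The additional copies are thus a mixed group. The 5 whose symbols end in -like are at most 41.0% identical to their main copies, and 2 of them were bound. The other 8 are at least 63.6% identical, and 1 of them was bound. The longest run of bases shared by the promoters of an additional and a main copy, from 250 bases before to 50 after the start, was 8 to 10 bases. It was 11 bases for RpS14a and RpS14b. Promoters of unrelated genes were not measured, so these lengths do not show that the promoters are alike. RpS14a and RpS14b lie next to each other on the X chromosome, encode identical proteins and were both counted as main copies. Both were bound, with signals of 683 and 520, replicate ranks of 748, 492 and 602 for RpS14a and of 996, 1657 and 1018 for RpS14b. The strongest summit counted for RpS14a lay at −209, but only 182 bp from the start of Dhdds, and a second summit lay on the RpS14a start itself, with a signal of 420.

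**Figure D3:**
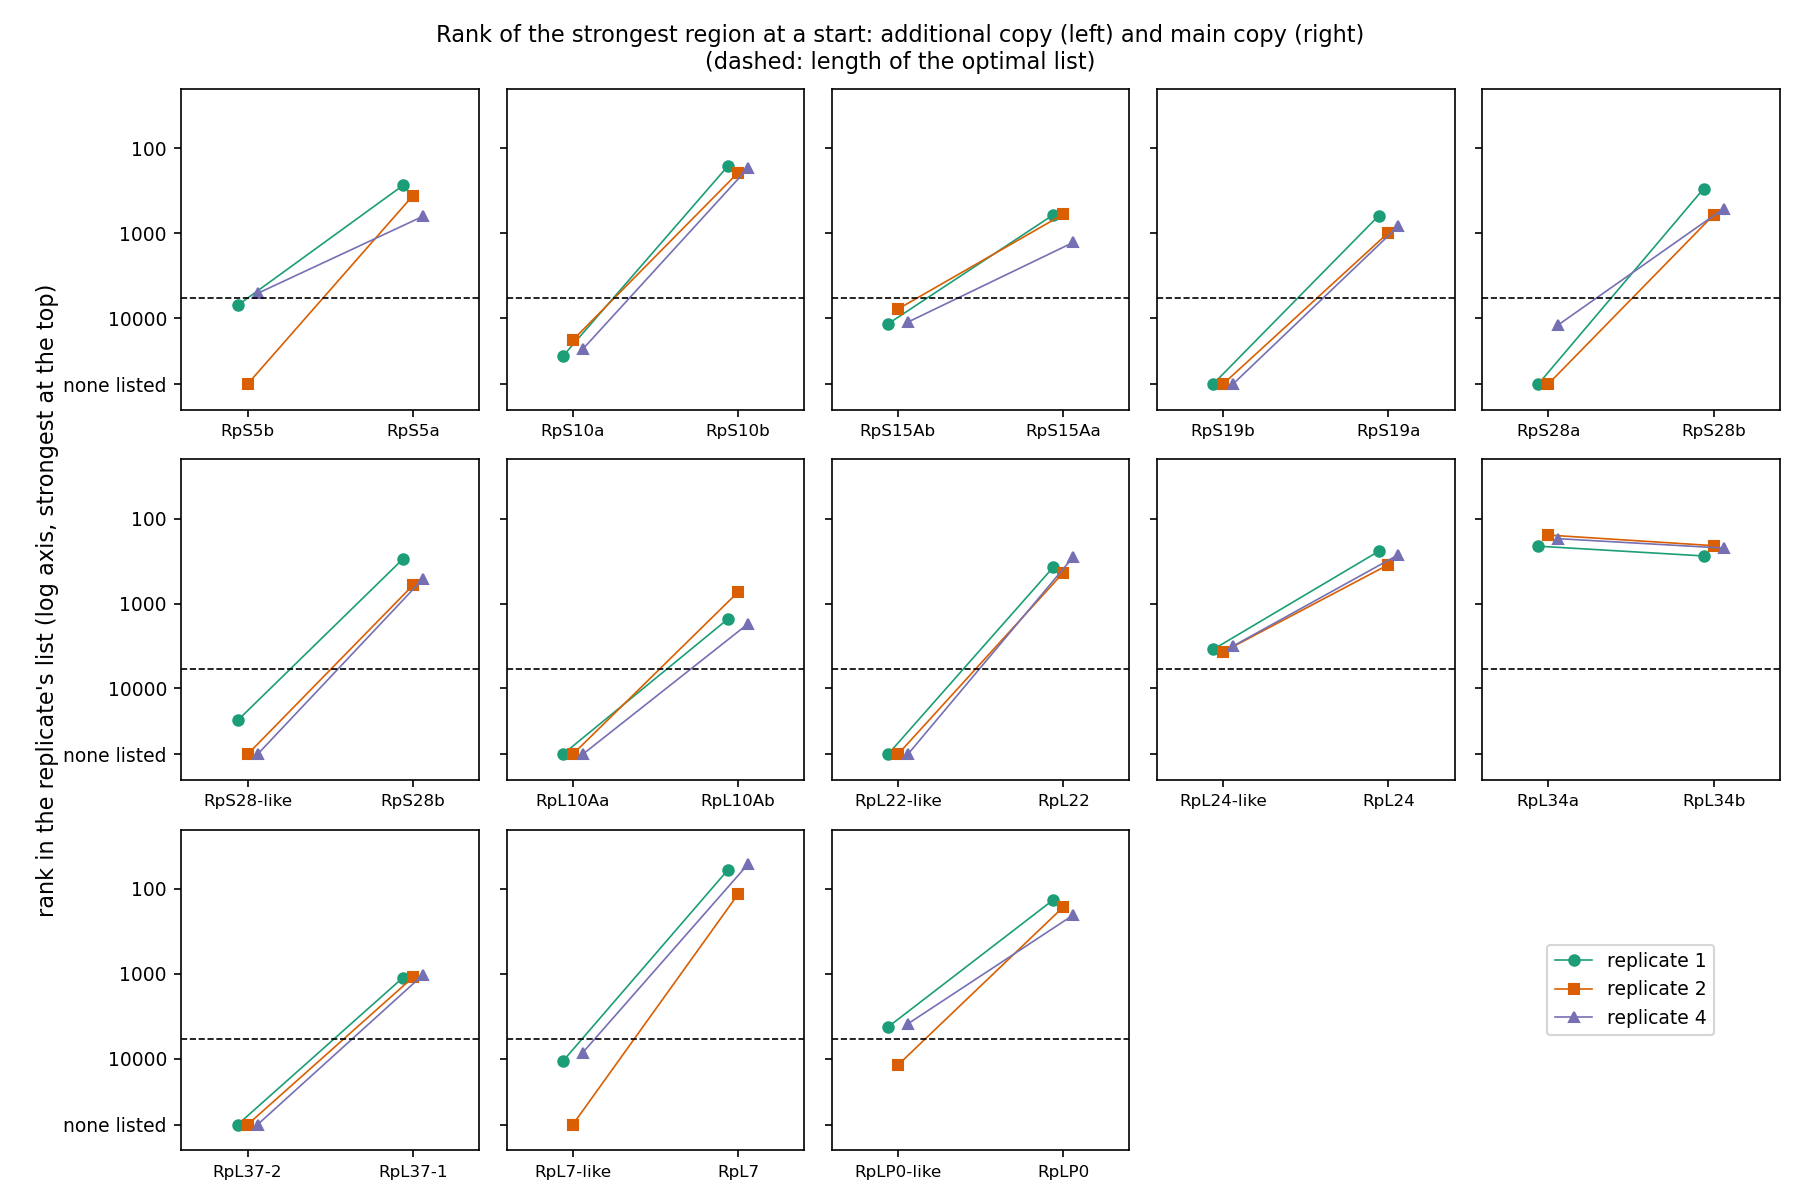
Rank of the strongest region at a start in replicates 1, 2 and 4 (log axis, strongest at the top) for each additional copy, left, and its main copy, right. Points at the bottom have no region within 500 bp. The main copy ranks ahead in every replicate of every pair but RpL34a and RpL34b, where the additional copy does.

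Only 4 of the 79 main copies were unbound. Among them RpS2, RpL40 and RpL21 had weaker regions within 500 bp of a start. RpS2 ranked 7445, 7337 and 4435 in replicates 1, 2 and 4. RpL40, which encodes ubiquitin fused to a ribosomal protein, ranked 17041, 3822 and 7357, and RpL21 10952, 4467 and 11097. The RpL40 regions lay at −56, −373 and −401 in replicates 1, 2 and 4, and CG3702, on the other strand, starts 602 bp upstream. In replicate 4 the region closest to the RpL40 start, at −56, ranked 21704. Each came within the 5862 strongest regions of 1 replicate and was outside them in the others, so its status varied between replicates. In the pooled list they ranked 6079 (RpS2), 8022 (RpL40) and 12648 (RpL21), with summits at +1, −373 and −2. RpS27A, the other ubiquitin fusion gene, was bound, with a signal of 613 and replicate ranks of 670, 583 and 1055.

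Summits at ribosomal protein genes lay close to the start. The strongest summit had a median position of −41.5 bp with quartiles at −72.5 and −11.5 bp, against a median of −144 bp at other bound protein-coding genes. In the replicates the medians were −43.3 ± 7.57 bp and −143 ± 8.62 bp (SD, n = 3 each). Of the 78 bound members, 68 (87.2%) had the summit within 100 bp of a start, against 30.1% of other bound genes. Counting each summit only for the gene with the nearest start brought the groups nearer to each other, with 93.2% of 74 members and 41.4% of 2647 other genes within 100 bp. In the replicates these shares were then 92.8%, 88.9% and 89.0% for the members and 41.4%, 37.7% and 44.7% for the other genes. Most summits lay upstream, at 64 of 78 members (82.1%) against 87.9% of other bound genes. Among the members this held for 43 of 48 large subunit genes (89.6%) and 21 of 30 small subunit genes (70%).

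**Figure D4:**
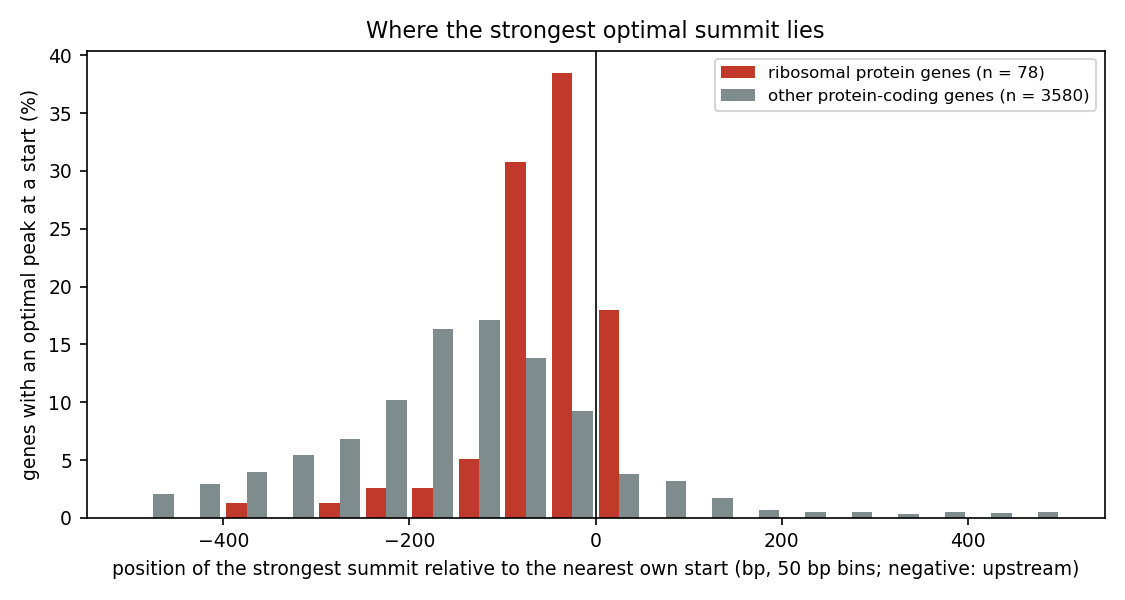
Position of the strongest optimal summit relative to the nearest start of the gene, as a share of bound genes in bins of 50 bp, for 78 ribosomal protein genes and 3580 other protein-coding genes. The members' summits pile up in the 100 bp upstream of the start (30.8% and 38.5% of genes in its bins), while those of other genes spread farther upstream.

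Of the bound members, 58 had a single optimal summit within 500 bp and 20 had a pair, and the 78 strongest summits were all distinct. For 6 members the strongest summit lay closer to another gene's start than to their own. Among them were RpL34a, RpL24-like, RpLP0-like and RpS14a, described above, and RpL10Ab, with its strongest summit at −357 and 219 bp from the start of CG5946, and a second summit at −48 of signal 320 and rank 2280.

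Many members lie head to head with another gene, and some hold small nucleolar RNA (snoRNA) genes in their introns, which guide the modification of ribosomal RNA. Members with a divergent partner start within 1000 bp were bound at 50 of 55 (90.9%), against 28 of 37 (75.7%) of those without. Among main copies alone the counts were 47 of 48 (97.9%) and 28 of 31 (90.3%). Within the replicates the shares of main copies were 97.2% ± 2.41 with and 84.9% ± 3.72 without a partner (SD, n = 3 each). The same split of other protein-coding genes was not counted, so it is unknown whether the contrast is particular to the members. A summit between head-to-head starts can count for both genes. The members that hold a snoRNA gene were all main copies and 27 of 28 were bound (96.4%), close to 48 of 51 main copies without one (94.1%). On the X chromosome 14 of 14 members were bound and on 3L 14 of 14, against 14 of 19 on 2L, 17 of 21 on 2R and 18 of 23 on 3R. Every additional copy lies on 2L, 2R or 3R, and the 5 unbound members on 3R are all additional copies. These counts therefore hold the split between copies, and shares of other protein-coding genes by arm were not counted.

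The bases around the summits differed in composition and in short words from those at other peaks. The median GC content of the 101 bases centred on the summit was 46.5% at the 78 bound members and 32.7% at the 5784 optimal summits that are not the strongest summit of a member. These other summits include many away from starts. GC was not counted for those at a protein-coding start alone, so the gap may reflect where the summits lie, which was not tested. TATCGATA, sought on both strands (it reads the same on each), lay within 50 bp of 16 of the 78 summits (20.5%), against 2.09% of all other optimal summits and 3.85% of the 2440 other summits at a protein-coding start. At these 16 genes the centre of the word lay a median of 12 bp from the summit and at most 36.5 bp from it, and RpL28, RpS25 and RpS10b, printed above, are among them. The signal was no higher where the word was present, with medians of 538 at the 16 members with it and 609 at the 62 without it.

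In promoters, from 250 bases before to 50 after the canonical start, TATCGATA was found at 28 of 92 members (30.4%), against 8.79% of other protein-coding genes and 14.6% of the other bound ones. It was found at 26 of 78 bound members (33.3%) and 2 of 14 unbound members (14.3%), and at 4 of 13 additional copies (30.8%) and 24 of 79 main copies (30.4%). RpL34a, shown above, carries it and RpL34b does not, while in the other printed pair RpS10a lacks it and RpS10b carries it. Of the 28, 23 (82.1%) had the word starting within 100 bp upstream of the start, as had 849 of the 1220 other protein-coding promoters with the word (69.6%).

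The other words sought were rarer at the members. GGTCACACT, part of the motif bound by M1BP, lay within 50 bp of 5 of 78 summits (6.41%), those of RpL27A, RpL37A, RpL7, RpLP0 and RpS23, against 0.864% of other optimal summits, on either strand. CACGTG, the E-box, lay at 4 (5.13%), those of RpL11, RpL24, RpL29 and RpL7, against 0.83%. GAGAG, the word of GAGA factor, lay at 2 (2.56%) against 9.37%. TGCGGATG, a word taken from an earlier look at these data, lay at none of the 78 and at 1.83% of other optimal summits. At the 2440 other summits at a protein-coding start, the shares were 1.48% for GGTCACACT, 0.902% for CACGTG, 7.95% for GAGAG and 1.07% for TGCGGATG. With so rare a word, its absence at 78 summits does not set the members apart. In promoters, GGTCACACT was found at 9.78% of members, against 5.83% of other protein-coding genes and 9.44% of the other bound ones, which is close to the members. CACGTG was found at 11.96% of members, against 4.20% of other protein-coding genes and 5.11% of the other bound ones, and GAGAG at 17.4%, against 30.2% and 29.2%.

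CTTT within 2 bases of the canonical start, on the strand of the gene, was found at 18 of 92 members (19.6%) against 2.17% of other protein-coding genes. These were 17 of 79 main copies and 1 of 13 additional copies, RpS5b. Only starts as annotated were read, so a start placed a few bases away from the true one would be missed. The 6 members with both this word and TATCGATA in the promoter were RpL36, RpL39, RpS15Aa, RpS16, RpS6 and RpS7. Such matches describe the letters in these windows, and whether any factor sits there was not tested.

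Among 8-letter words counted at the members' summits, in a search made after the values were seen, the most frequent were ATCGATAG and TATCGATA, which overlap, at 16 of 78 each. AAAAGAAA lay at 12 (15.4%), against 3.06% of other optimal summits. Rarer words picked for their low share elsewhere were AGTGTGGC, at 9 (11.5%) against 0.501%, and AAAGAAGG, at 8 (10.3%) against 0.277%. The reverse complement of each word was counted with it. No test was made of words picked in this way. Apart from TATCGATA, they were set only against all other optimal summits and not against those at a protein-coding start.

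Of the other genes of the ribosome and its assembly, both ribosomal protein genes with other symbols were bound. Rack1, a scaffold on the small subunit, had a signal of 677 and replicate ranks of 566, 920 and 594, within the range of the members. The second, sta, had a signal of 257 and ranked 3196, 15623 and 2141, far lower in replicate 2. Of 26 genes of ribosome biogenesis and RNA polymerase I, 13 were bound (50%; 52.6% ± 5.88 in the replicates, SD, n = 3), which is below the members and above the 26.2% of all protein-coding genes. The highest signals were at eIF6 (1495), which keeps the subunits apart until the large one is mature, Ns2 (1090), a nucleostemin relative, NHP2 (468) and nop5 (401), both of snoRNA-protein particles. None of the listed subunits of RNA polymerase I (Polr1A, Polr1B and Polr1H) was bound in the optimal list, though a region at Polr1B ranked 4648 in replicate 4, within the 5862 used there. RpS6, whose protein is phosphorylated in response to growth signals, shared its peak of signal 352 with bys, a gene of small subunit assembly.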

How the data were processed

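Chromatin immunoprecipitation libraries of 3 replicates were compared with no second group. Per the deposited records, the authors called a relaxed list of regions for each replicate and for the pooled libraries, against a control, and an optimal list after the IDR step, on dm6 and dm3. The dm6 lists were used. The caller and its version are not given in the sources used here. Each region carries the authors' signal value, without a stated scale, and a deposited column read as −log10 q after the narrowPeak format, whose highest value 79.2% of the optimal peaks shared, so it did not order regions. Signal medians of 25.8, 17.3 and 35.0 in the relaxed lists of replicates 1, 2 and 4 differ, so signal was ranked within lists. Read counts are not in the files used here, so depth is unknown.

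Genes and starts came from Ensembl 115 (18277 genes on the main chromosome arms, without transposable elements), and bases from the RefSeq Release 6 genome. All regions lie within its arms. A gene is bound where a summit lies within 500 bp of any of its starts. Relaxed replicate lists were cut to their 5862 strongest regions. Promoter words used the canonical start, and 1 protein-coding gene without one was left out. Protein identity is the share of identical columns over a global alignment of the translated coding sequences.

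Counts, medians, exact 95% intervals and the spread of replicates are given, and no p-value was computed, since members, gene lists, words and the rule for named genes were chosen with earlier results of these data known. Named genes are the 10 strongest bound members, all unbound members, all paralog pairs, members near the 500 bp limit, the 5 of most variable rank and those whose summit is closer to another gene. Others were chosen after their values were seen. The single values of 2 members are not reported here, while counts and medians include them. The assignment of summits to starts was tested on simulated data. The alternatives cover the distance to the start, nearest genes only, stronger or replicate-supported peaks, the length of the replicate lists, single replicates left out and the choice of paralogs. Python 3.11.15, numpy 2.4.6, scipy 1.17.1, pandas 2.3.3, Biopython 1.88 and matplotlib 3.10.9 were used.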

Additional observations from a re-analysis of the deposited data

How the results depend on the processing

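The share of bound members (84.8%) stayed within the spread of the replicates for summits within 250 or 1000 bp and for canonical starts only. It was 80.4% when summits counted only for the nearest gene, 71.7% among the 2931 strongest optimal peaks, and 75% or 70.7% for peaks that overlap a region of every replicate by at least 1 bp or over at least 50% of the peak. Those stricter lists hold fewer peaks. The mean over replicates (82.6%) was 92.8% with all regions of each list, 72.1% with 2931 regions each and 84.8% within 1000 bp. It was 82.1% to 83.7% when a replicate was left out. Shares of all protein-coding genes under these settings are not given, so these values describe the members alone.

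The difference between additional and main copies was −93.7 percentage points with nearest genes only, −83.8 without RpL7-like, RpL22-like, RpL24-like and RpLP0-like, and −82.4 without all 5 like-named genes, a choice made after seeing the data. It was −71.9 with RpL34a as the main copy, as before. The difference between large and small subunit genes moved by less than its replicate spread under every alternative, and was 1.99 points for main copies only. The median signal percentile of the members (85.7) was 75.9 among the 2931 strongest peaks, ranked within them, and 81.8 and 83.4 among replicate-supported peaks (1 bp and 50%). The median position (−41.5 bp) was −54 bp from canonical starts only, also added after seeing the data. Neither difference between groups nor the median position changed sign under these alternatives, and the shares and the percentile could not. In replicate 4 by itself, the difference between large and small subunit genes was −0.877 points. Of the values recomputed, 32 moved by less than the replicate spread while 14 moved by more. No paired analysis was possible because the libraries form a single group.

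Depth is unknown, so the lack of a listed region at RpS19b, RpL10Aa, RpL22-like and RpL37-2 has no detection limit in reads. The relaxed lists stop at 30000 regions, with lowest signals of 39.6 in the pooled list and 17.6, 11.8 and 18.6 in replicates 1, 2 and 4. The authors called the lists against a control, but no control sample was analysed here. Neither the sharing of a peak between neighbouring genes nor the antibody's or the tag's own background was tested.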

Other observations

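A few members differed between replicates by position on the chromosomes, a pattern noticed after the values were seen and not tested. RpS3A, the only member on chromosome 4, was bound in the optimal list (signal 523, rank 1046) and ranked 1038 and 1473 in replicates 2 and 4. Replicate 1 listed no region within 500 bp of its start, and its nearest lay 64258 bp away. On chromosome 4, the lists of the 5862 strongest regions held 12, 19 and 23 regions in replicates 1, 2 and 4, and the relaxed lists held 48, 75 and 179.

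Of the members near the centromere-proximal ends of the arms, 4 ranked lower in replicate 4 than in the other replicates. RpL5, at chr2L:22532279-22536884, ranked 2169 and 2146 in replicates 1 and 2 and had no region at its start in replicate 4. RpL10, at chr3L:23093190-23095471, ranked 2139, 2835 and 6291 in replicates 1, 2 and 4, and RpL15, at chr3L:27267255-27268445, ranked 2857, 3781 and 6406. RpL38, at chr2R:4515388-4516458, ranked 1477, 1779 and 4686. These 4 genes were picked for their ranks. RpL21, which lies close to RpL5, ranked 10952, 4467 and 11097, about level in replicates 1 and 4 and higher in replicate 2.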
